A study of Mus musculus and blank sample with 191 samples.

Results

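Smooth muscle contractile genes were followed through the epithelium and stroma of the mouse endometrium. They are the 10 genes Acta2, Actg2, Myh11, Des, Tagln, Cnn1, Mylk, Lmod1, Smtn and Tpm2, found by symbol among the 19962 targets of the deposited count table, and 9 of them passed the authors' detection filter while Lmod1 did not. The values come from the GeoMx whole-transcriptome assay, in which probes are hybridised to a tissue section and counted within regions drawn on the image, and from the first of its plates. PV mice (Thra1PV/+, labelled PV/N) are heterozygous for a dominant negative mutation, PV, of the thyroid hormone receptor TRα1, and WT mice (N/N) lack it. All were females matched for the estrous cycle, with no drug treatment named in the labels, and the tissue was fixed, paraffin-embedded uterus sampled as cores. The 6 PV mice were 2.4 to 6.3 months old (median 4.1) and the 8 WT mice 4.0 to 9.0 months (median 5.85), so age and genotype were partly confounded. The first plate held 60 epithelium regions (31 PV and 29 WT) and 35 stroma regions (21 PV and 14 WT), and WT4 had no stroma region. Counts were summed per mouse and compartment, because regions of 1 mouse share their animal.

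In a smooth muscle cell, myosin filaments pull on actin filaments that are tied to dense bodies and to the desmin network. Calcium entering the cell binds calmodulin, which switches on myosin light chain kinase, and the phosphorylated light chain lets myosin move along actin. Tropomyosin, calponin, transgelin, smoothelin and leiomodin sit on or organise the actin filament. In the uterus this apparatus is best known from the myometrium, the muscle wall around the endometrium, but arterioles, pericytes and some fibroblasts of the endometrium use part of it as well. Serum response factor and its partner myocardin switch on many of these genes through a short DNA element, the CArG box.

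On GRCm38 with the GENCODE vM21 annotation, the actin genes lie at chr19:34241090-34255590 (Acta2, minus strand) and chr6:83512905-83536265 (Actg2, minus). The motor and its kinase lie at chr16:14194535-14291372 (Myh11, minus) and chr16:34745210-35002420 (Mylk, plus). Desmin lies at chr1:75360329-75368579 (Des, plus). The thin filament genes lie at chr4:43514711-43523765 (Tpm2, minus), chr9:45929619-45936058 (Tagln, minus), chr9:22099216-22109630 (Cnn1, plus), chr11:3517523-3540612 (Smtn, minus) and chr1:135324807-135368065 (Lmod1, plus). The assay reads probes within these transcripts and does not separate isoforms.

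The RefSeq promoter table, which gives 250 bases before and 50 after each gene's start on GRCm38.p6, held 7 of the 10 genes. Actg2, Myh11 and Tagln had no entry. No promoter of the 7 held a strict CArG box on either strand, against 1.63% of all 32851 promoters. With 1 C or G allowed among the 6 central A or T bases, Acta2 held matches and the other 6 genes held none, against 8.50% of all promoters with a match. The Acta2 matches are shown because no other gene of the 7 held one. Capitals mark the 10 bases that match, at chr19:34255441-34255464 and chr19:34255391-34255414 on the minus strand, both within an untranslated first exon in GENCODE. A match of letters is a description and was not measured as a binding site.
Acta2 site starting 84 bases before the RefSeq start: ctgaggtCCCTATATGGttgtgtt
Acta2 site starting 34 bases before the RefSeq start: ctttgctCCTTGTTTGGgaagcga

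A first-plate region held 61691 to 3130400 counts over all 19962 targets. Summed per mouse over the 14881 kept genes only, epithelium held 55661 to 13102749 counts and stroma 76398 to 4969175. The lowest sums belonged to PV2, with 1 region per compartment. The labels were compared with 8 columnar epithelium and 8 fibroblast markers, by the mean log2 difference of the marker lists. The 60 first-plate regions labelled epithelium lay at 1.04 or above and the 35 labelled stroma at -1.75 or below. The midpoint of -0.36 was set halfway between these values, so every first-plate region falls on its label's side by construction. Cytokeratin was stained to draw the regions, and Krt8, Krt18 and Krt19 are among the columnar markers. Of the 94 second-plate regions, 38 fell across that midpoint from their label, so that plate enters only as an alternative.

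The contractile genes were higher in stroma than in epithelium of the same mice, but by very different amounts. Mylk, the kinase that activates myosin, and Des, the intermediate filament of muscle, were 6.91 and 6.03 times as high in stroma. Tpm2 (beta-tropomyosin) was 4.72 times and Tagln (transgelin, an actin-binding protein) 3.73 times as high. Myh11, Smtn, Actg2 and Cnn1 differed by 2.10, 2.03, 1.71 and 1.69 times. In the paired edgeR fit all 8 tested genes of the authors' filtered table were called higher in stroma at an adjusted p under 0.05, against 34.6% of all 14881 genes, and none was called lower. Acta2 is left out of this count, because the region drawing used a stain for its protein, smooth muscle actin, and its difference is a description. Whether the stain also shaped the differences of the 8 counted genes was not tested. Over stroma regions the r of these genes with Acta2 ran from -0.12 for Mylk to 0.89 for Myh11.

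Among the actins, Acta2 (smooth muscle alpha-actin) lay at 14.0 to 127 CPM (counts scaled to a common library total, median 55.5) in PV epithelium and 41.3 to 104 (median 60.9) in WT epithelium. In stroma it lay at 108 to 803 CPM (median 289) in PV and 58.2 to 318 (median 183) in WT mice. By CPM stroma was higher in 13 of 13 mice, and the fitted log2 fold change was 1.46 ± 0.19 (SE). CPM was scaled within each compartment, whereas the fit scaled both compartments together. Gaps, counts of mice and overlaps read from CPM are thus not on the scale of the fit. How far they rest on the scaling was not tested. Actg2, the gamma-actin of visceral muscle, lay at 9.84 to 42.8 CPM (median 15.2) in PV epithelium and 14.2 to 25.4 (median 17.4) in WT epithelium. In stroma it reached 12.1 to 177 CPM (median 32.6) in PV and 15.6 to 63.6 (median 33.5) in WT mice. The groups overlapped within each compartment, and the fitted difference between compartments was 0.77 ± 0.18 (edgeR adjusted p 0.000943). The gap in log2 CPM was positive in 13 of 13 mice, with a median of 0.98 and the smallest, 0.09, in WT2.

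Myh11, the heavy chain of smooth muscle myosin, lay at 16.7 to 34.7 CPM in PV and 13.4 to 37.5 in WT epithelium, and at 43.2 to 197 and 22.7 to 106 in stroma. Its log2 difference between compartments was 1.07 ± 0.18 (adjusted p 5.55e-05), with 13 of 13 mice higher in stroma and the smallest gap, 0.17, in WT2. Mylk lay at 14.0 to 53.1 CPM (median 33.5) in PV epithelium and 32.4 to 98.9 (median 46.7) in WT epithelium. Its stroma values were 242 to 657 CPM (median 352) in PV and 221 to 524 (median 349) in WT mice, so the lowest stroma value of either genotype stood above the highest epithelium value. The difference was 2.79 ± 0.14 (adjusted p 9.58e-12), with the smallest gap, 2.28, in WT5, and lay at 2.70 to 2.85 when any 1 mouse was left out. In PV2 epithelium Mylk, Acta2, Actg2, Des, Lmod1 and Smtn were each at 1 count, the lowest value of the table, so that the 14.0 CPM given for that mouse is a floor beside its negative-probe level of 14.6 CPM. Des, which links dense bodies and Z discs, showed the same separation. It lay at 14.0 to 29.2 CPM in PV and 19.2 to 55.1 in WT epithelium, against 66.0 to 343 (median 162) and 140 to 651 (median 185) in stroma, with a difference of 2.59 ± 0.13 (adjusted p 8.91e-12).

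Of the thin filament genes, Tpm2 lay at 20.4 to 46.5 CPM across all epithelium sums and at 66.1 to 324 across all stroma sums, again with no overlap (2.24 ± 0.13, adjusted p 4.73e-11). Tagln lay at 28.0 to 65.3 CPM in PV and 21.8 to 87.6 in WT epithelium, and at 110 to 470 (median 313) and 29.4 to 352 (median 116) in stroma. WT2 gave its lowest stroma value and its smallest gap between compartments, 0.34, while the fitted difference was 1.90 ± 0.20 (adjusted p 1.75e-07). Smtn (smoothelin) differed by 1.02 ± 0.12 (adjusted p 3.71e-07) and was higher in stroma in 13 of 13 mice. Cnn1 (calponin) differed by 0.76 ± 0.16 (adjusted p 0.000507) and was higher in 12 of 13 mice, with PV2 the exception on 2 counts in epithelium against 1 in stroma, near the negative-probe level of both. Lmod1 (leiomodin), tested only in the fit without a gene filter, differed by 0.42 ± 0.15 (adjusted p 0.0241) and was higher in 11 of 13.

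**Figure D1:**
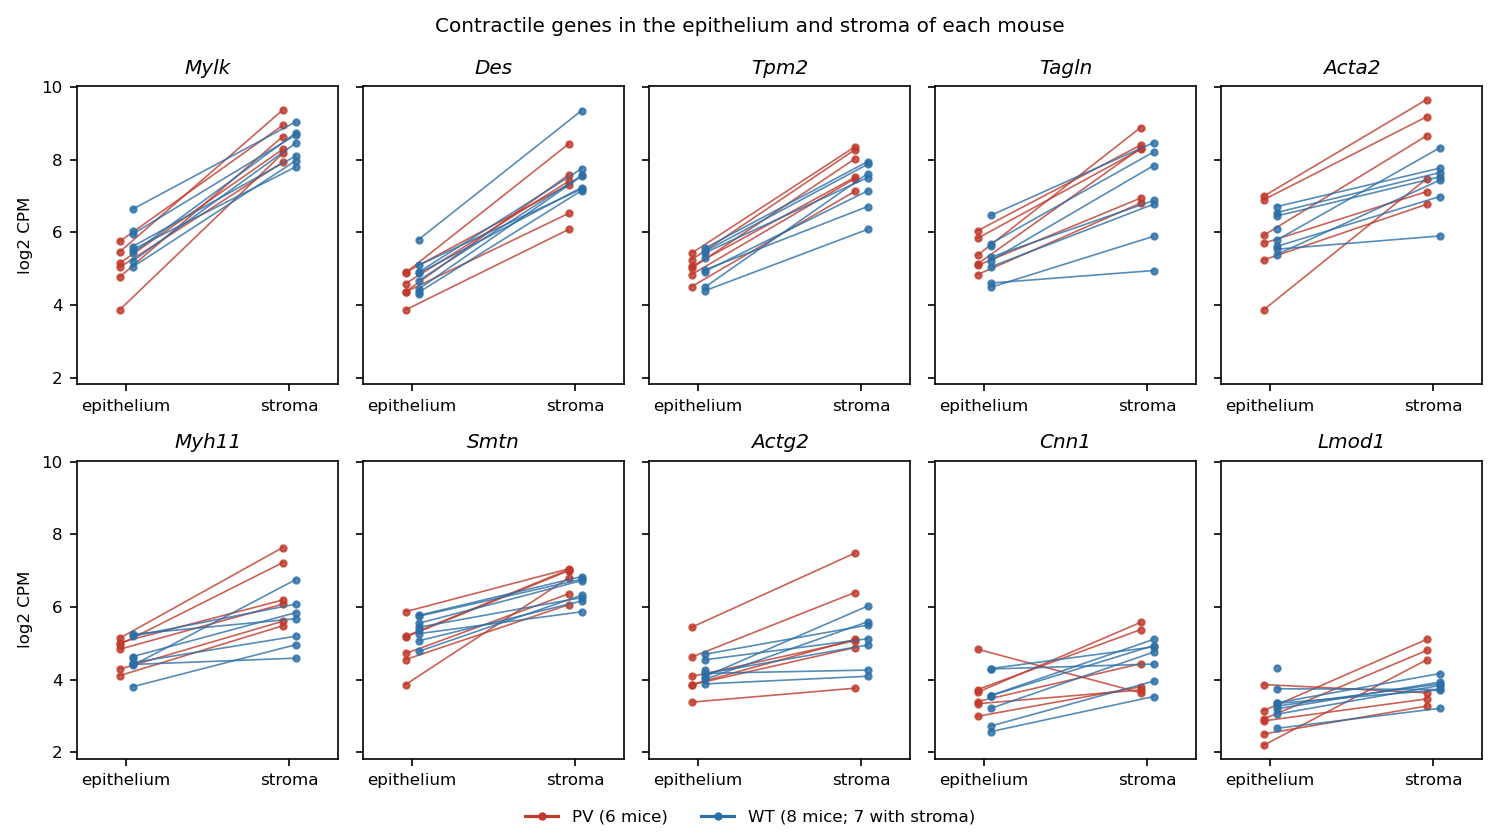
Level of each contractile gene in each mouse (log2 CPM, prior count 2) in epithelium and stroma, 1 point per mouse and compartment, lines joining the compartments of a mouse, red PV and blue WT. Mylk, Des and Tpm2 separate the compartments without overlap, whereas Acta2, Tagln and Actg2 fan out in stroma and Cnn1 and Lmod1 lie low in both. CPM was scaled within each compartment.

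Cnn1 and Lmod1 lay close to probe background. The negative-probe row, which reads probes with no mouse target, lay at a median of 3.28 in epithelium and 3.87 in stroma in the authors' third-quartile (Q3) units. Lmod1 was above the negative-probe value of its own region in 49 of 60 epithelium and 30 of 35 stroma regions, at median ratios of 1.46 and 1.82. Cnn1 was above it in 52 of 60 and 31 of 35 regions, at ratios of 1.81 and 2.55. Des and Mylk were above it in 35 of 35 stroma regions, at median ratios of 26.1 and 54.9. With the negative-probe level subtracted before summing, the Cnn1 difference was 1.18 and the Actg2 difference 0.95, and the same 8 genes were counted as called.

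Both plates as labelled gave smaller differences, of 1.26 for Mylk, 1.22 for Des, 0.13 for Actg2 and 0.18 for Cnn1, and 6 of the 8 tested genes were called. Other cell types moved with the compartments too. All 8 pericyte and vascular muscle markers, all 6 endothelial markers and 7 of 8 fibroblast markers were called higher in stroma, with summed levels of 363 to 733, 353 to 846 and 3270 to 18900 CPM across stroma sums. Their epithelium sums were 84.7 to 165, 57.5 to 154 and at most 1700 CPM. Of the macrophage markers 5 of 6 were called higher in stroma, of the skeletal muscle markers 4 of 4 kept, of the mesothelial markers 1 of 2 kept, and of the squamous and basal markers 0 of 3 kept. All 8 columnar markers were lower. Krt8, Krt18 and Krt19 among them are keratins, and the region drawing used a cytokeratin stain, so their difference is a description. Whether that stain also shaped the differences of the other columnar markers was not tested. The skeletal muscle markers had stroma medians of 12.3 to 27.5 CPM, not far above negative-probe levels of 4.75 to 13.0 CPM. Of the mesothelial list only Wt1 stood out, at stroma medians of 180 CPM in PV and 130 in WT mice. These calls do not establish those cell types in stroma. The part of other cell types in the differences of the contractile genes was not tested, and in bulk regions fewer cells of a type and less RNA per cell cannot be told apart.

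**Figure D2:**
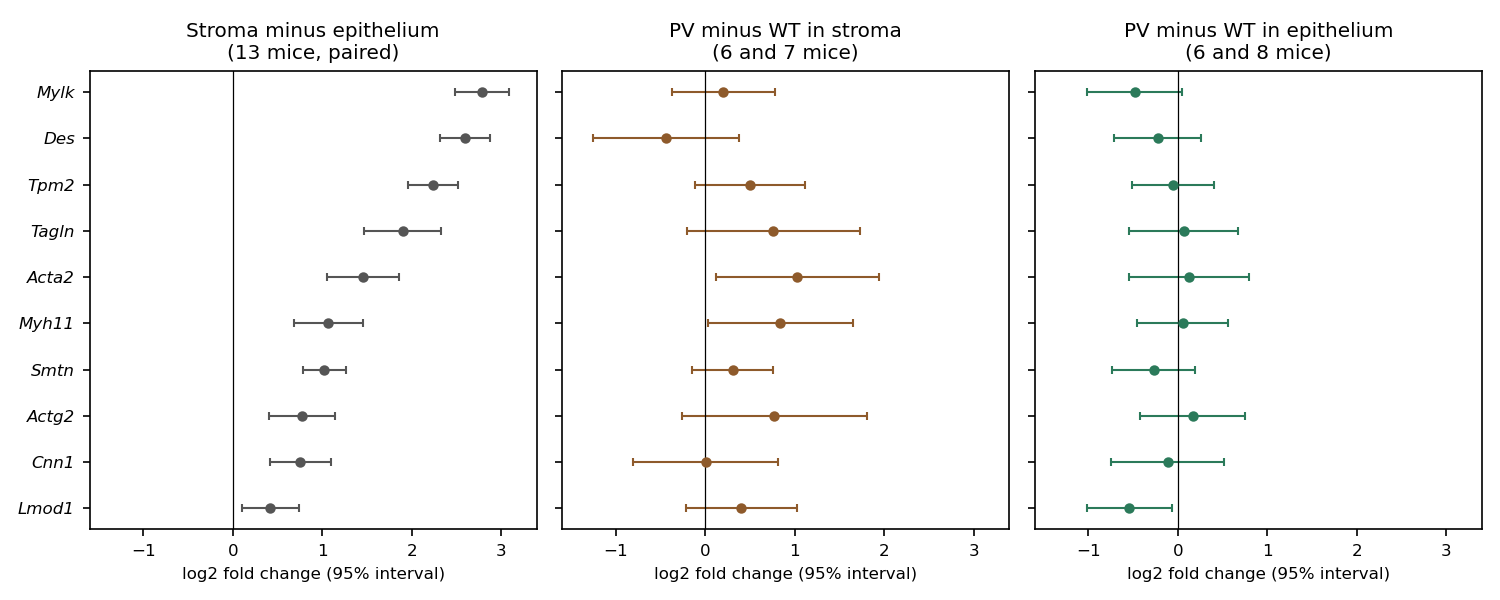
Log2 fold changes (points) with 95% intervals (bars) from edgeR for stroma minus epithelium, PV minus WT in stroma and PV minus WT in epithelium, with Lmod1 from the fit without a gene filter. The compartment intervals lie above 0 for all 10 genes, and the genotype intervals in stroma are wide, reaching from 0.12 to 1.94 for Acta2 and from -1.25 to 0.38 for Des.

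In single regions the genes differed in how far the compartments overlapped. Des in the lowest of 35 stroma regions (43.3 Q3 units) stood above the highest of 60 epithelium regions (41.2). Mylk exceeded every epithelium region in 32 of 35 stroma regions and Tpm2 in 31. Acta2 did so in 18, Tagln in 21, Smtn in 22, Myh11 in 14, Actg2 in 6, and Cnn1 and Lmod1 in 3 each. Acta2 and Tagln had stroma regions at epithelium level as well as regions far above it, up to 532 against at most 93.8 in epithelium and up to 334 against 64.0. The highest stroma regions of Cnn1 and Lmod1, at 30.4 and 27.1, stood closer to their highest epithelium regions, at 24.1 and 15.1.

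Acta2 ranged from 12.0 to 532 Q3 units (median 91.0) over the PV stroma regions and from 18.7 to 243 (median 113) over the WT ones. The highest value was in PV1 and the lowest in PV4. Tagln ranged from 6.01 to 334 Q3 units over the PV and 12.4 to 220 over the WT regions, and Actg2 from 2.30 to 158 and 6.01 to 47.6. Des kept to a middle range narrower than these, with an interquartile ratio of 1.38 over the stroma regions, against 3.15 for Acta2, 4.06 for Tagln and 2.68 for Actg2. Mylk had a ratio of 1.83, Tpm2 1.88 and Smtn 1.59.

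The spread had a part between mice and a part between regions of a mouse. The SD between stroma regions of the same mouse was 1.14 for Tagln and 1.08 for Acta2 on the log2(Q3 + 1) scale, against a median of 0.44 over all kept genes. It was 0.26 for Des, 0.35 for Smtn and 0.37 for Mylk. For Des 82.8% of the stroma variance lay between mice, the highest share of the 10 genes, and the lowest share was 38.2% for Cnn1, with a median of 33.6% over all kept genes. The Des share rested in part on WT3, whose only stroma region held the highest value of 390 Q3 units.

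Over the 35 stroma regions, 8 of the genes rose and fell together while Des and Mylk did not follow them. Between Acta2 and Myh11 Pearson's r was 0.89 (Spearman's rho 0.89), between Tagln and Tpm2 0.91 (0.89), between Acta2 and Cnn1 0.82 (0.84) and between Acta2 and Actg2 0.77 (0.78). The 28 pairs among the 8 genes ran from 0.39 to 0.91 with a median of 0.63. Acta2 had an r of -0.05 with Des and -0.12 with Mylk, and over the 8 genes the median was -0.00051 for Des and -0.15 for Mylk. These are descriptions over regions that share mice, with each region scaled by 1 factor, and the split into 8 and 2 genes was made after the values were seen.

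**Figure D3:**
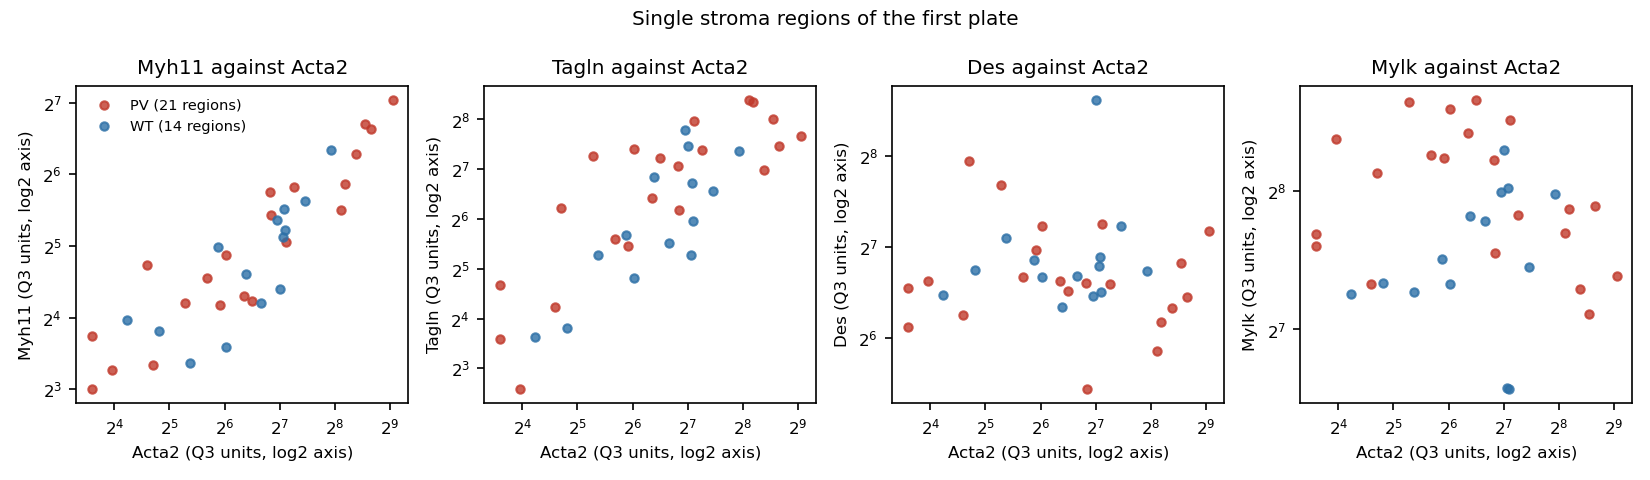
Myh11, Tagln, Des and Mylk against Acta2 in the 35 first-plate stroma regions (Q3 units, log2 axes), 1 point per region, red PV and blue WT. Myh11 and Tagln rise with Acta2 (r 0.89 and 0.80), and Des and Mylk do not (r -0.05 and -0.12).

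Taking deviations from the mean of each mouse, over the 32 stroma regions of mice with at least 2, left the median of the 28 pairs at 0.62. The median for Des was then 0.09 and that for Mylk 0.33, so Mylk followed the other genes weakly inside mice. Mylk also differed with the regions used, with a median of -0.29 over the 21 PV and 0.36 over the 14 WT stroma regions. PV3 and PV4 gave 14 of those 21 PV regions. Without PV6, whose Actg2 was the highest, the median of the 28 pairs was 0.59. Des and Mylk had an r of 0.30 with each other, which fell to -0.07 within mice.

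In epithelium the pattern was weaker and arranged differently. Over 60 regions the 28 pairs had a median of 0.36, with Acta2 and Tagln at 0.77 and Acta2 and Tpm2 at 0.73. Des and Mylk had an r of 0.54 with each other and of 0.64 within mice, but 0.68 over the 31 PV and 0.24 over the 29 WT regions. The difference between compartments in these correlations was not tested.

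**Figure D4:**
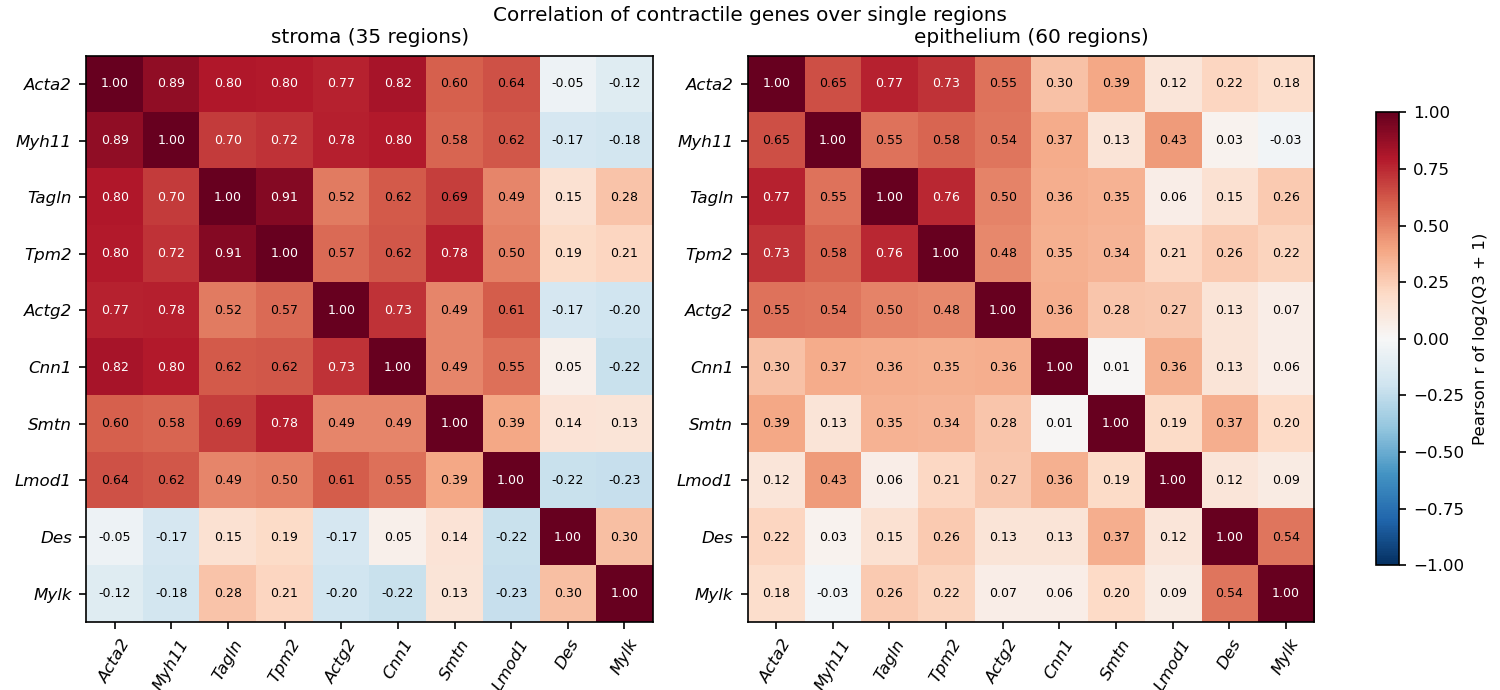
Pearson's r of log2(Q3 + 1) between the 10 genes over 35 stroma and 60 epithelium regions of the first plate, red positive and blue negative. In stroma the block of 8 genes is red, with a median of 0.63, and the Des and Mylk rows are pale, while in epithelium Des and Mylk share an r of 0.54 (0.68 over PV and 0.24 over WT regions).

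Among 14872 other kept targets, those most like the mean of the 9 kept contractile genes over stroma regions were Myl9 (r 0.83), which encodes the regulatory light chain of smooth muscle myosin, Pcp4 (0.80), a calmodulin-binding protein, Sfrp4 (0.76), a secreted Wnt modulator, Plscr4 (0.76) and Smim14 (0.75), against a median of 0.05 over all these targets. Pcp4 came first in epithelium (0.67), ahead of Mettl7a1, Cfap300, Arhgap10 and Mpp1 (0.64 to 0.66). Des and Mylk had other neighbours, named after their values were seen. The nearest to Des in stroma were Mtch1 (0.73) and Myl6 (0.72), and the nearest to Mylk were Lbh (0.81) and Psd (0.81). In epithelium regions Mylk lay closest to Col4a1 (0.78), a basement membrane collagen, and Pdgfra (0.72), a fibroblast receptor, and Des closest to Igfbp6 and Fstl1 (0.68 each).

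Measures of other kinds moved with the genes over the stroma regions. The summed fibroblast markers had an r of 0.48 with Acta2, 0.31 with Des and 0.05 with Mylk, and the summed pericyte and vascular muscle markers -0.15, 0.07 and 0.24. The columnar epithelium sum had an r of -0.58 with Acta2 and -0.57 with Tpm2. The negative-probe value had an r of 0.60 with Lmod1, 0.57 with Actg2, 0.39 with Acta2, -0.44 with Des and -0.47 with Mylk. Its part in the covariation was not tested. The skeletal muscle markers, at 88.3 to 165 CPM summed over the list in stroma, had an r of 0.42 with Acta2 and of -0.35 with Des.

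Between genotypes, the stroma of PV mice had estimates above those of WT mice for most of the contractile genes, and none was called. Acta2 was 2.04 times as high in PV stroma, a log2 fold change of 1.03 ± 0.43 (edgeR unadjusted p 0.0289, adjusted p 1). Myh11 was 1.79 times as high (0.84 ± 0.39, unadjusted p 0.0427, adjusted p 1). With both plates as labelled these estimates were 0.18 for Acta2 and 0.023 for Myh11, the lowest under any alternative run. Of the 10 genes 9 had an estimate above 0 and Des an estimate of -0.44 ± 0.39, but with both plates Cnn1, Mylk, Smtn, Tagln and Tpm2 turned negative as well (-0.23 to -0.0047). The median estimate over all genes was 0.011, and most of the 10 genes varied together over stroma regions, so they are not separate results. None of the 9 tested with the filter was called, and the background was 0% of 14881 genes, with 524 at an unadjusted p under 0.05, 2 calls by DESeq2 and 0 by limma on per-mouse means.

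The values by mouse show where the estimates came from. Acta2 lay at 803 CPM in PV1, 578 in PV6 and 402 in PV5, above the highest WT value of 318 in WT8, whereas PV2, PV3 and PV4 lay at 176, 137 and 108, at or below the WT median of 183. Without PV1 the Acta2 estimate was 0.64. Actg2 was highest in PV6 (177 CPM) and PV1 (82.7) and its lowest value of either genotype was in PV3 (12.1), with an estimate of 0.77 ± 0.49 that was -0.11 without PV6. Des was highest in WT3 (651 CPM), and without that mouse its estimate was 0.044. Smtn, Tpm2 and Lmod1 also had 3 of 6 PV mice above every WT mouse, at estimates of 0.31 ± 0.22, 0.50 ± 0.29 and 0.40 ± 0.30. How many of all genes do so was not counted. Tagln was 0.76 ± 0.46, Mylk 0.20 ± 0.28 and Cnn1 0.01 ± 0.39, with 95% intervals from -0.21 to 1.73, from -0.38 to 0.78 and from -0.80 to 0.82.

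In epithelium the estimates were smaller and of both signs. Mylk was at -0.48 ± 0.25 (edgeR unadjusted p 0.0709, adjusted p 0.628), with 3 of 6 PV mice below every WT mouse, 1 of them PV2 with its single count, and Lmod1 at -0.54 ± 0.23 in the fit without a filter (unadjusted p 0.0272, adjusted p 0.66). The others ran from -0.27 for Smtn to 0.17 for Actg2. The Mylk estimate was 0.25 ± 0.35 under 5 months and -0.84 ± 0.34 from 5 months (unadjusted p 0.0273, adjusted p 1), a genotype by age difference of -1.09 ± 0.49 (edgeR unadjusted p 0.0404, adjusted p 1). None was called, against 0% of 14881 genes, with 1223 at an unadjusted p under 0.05, 28 calls by DESeq2 and 0 by limma on per-mouse means. For Tpm2, which differed strongly between compartments, the 95% interval of the genotype difference was -0.51 to 0.41.

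The genotype difference was itself compared between compartments in the paired model. It was more positive in stroma for 9 of 10 genes, by 0.60 ± 0.19 for Smtn (unadjusted p 0.00638, adjusted p 0.579), 0.65 ± 0.24 for Mylk (unadjusted p 0.0151, adjusted p 0.601) and 0.86 ± 0.36 for Tagln (unadjusted p 0.0275, adjusted p 0.657). Cnn1 was at -0.10 ± 0.33. The median over all genes was 0.0045, and genes that vary together over regions do not count as separate results. None was called, against 0% of all genes, where 1066 had an unadjusted p under 0.05, DESeq2 called 1 gene and limma on per-mouse means 0. On both plates as labelled, 8 of the 9 estimates with the filter changed sign.

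In WT mice several of the genes lay lower in the 2 animals under 5 months. The WT mice under 5 months, WT1 and WT2, had stroma Acta2 at 125 and 58.2 CPM, against 171 to 318 in the 5 older WT mice. They also lay below all 5 older WT mice for Actg2, Myh11, Tagln, Cnn1 and Tpm2, a pattern noticed in the values and not tested. In epithelium both lay below all 6 older WT mice for Tagln, Cnn1, Mylk and Lmod1. How many of all genes separate WT1 and WT2 from the older WT mice in this way was not counted, so these genes cannot be called unusual in it. Stroma Des did not separate them, at 187 and 149 CPM against 140 to 651, and neither did stroma Mylk, Lmod1 and Smtn. In epithelium the remaining genes did not separate them either. Among PV mice PV1, the youngest with PV2, had the highest Acta2 of all.

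The PV mice under 5 months were aged 2.4 to 4.2 months and the WT mice 4.0 and 4.5. Age and genotype thus stayed partly confounded in this class. Under 5 months, PV stroma was higher than WT by 2.39 ± 0.60 for Tagln (4 against 2 mice, edgeR unadjusted p 0.000916, adjusted p 0.485), 1.75 ± 0.68 for Acta2, 1.67 ± 0.59 for Myh11 and 1.39 ± 0.40 for Tpm2. From 5 months (2 against 5 mice) the estimates were 0.84 ± 0.49, 1.17 ± 0.57, 0.79 ± 0.49 and 0.36 ± 0.35. Lmod1 ran the other way. Lmod1 was at -0.07 ± 0.33 under 5 months and 1.15 ± 0.30 from 5 months (edgeR without a filter, unadjusted p 0.000933, adjusted p 0.556), a difference of 1.23 ± 0.45 (unadjusted p 0.0132, adjusted p 0.806). Actg2 was at 1.02 ± 0.68 and 1.25 ± 0.53, a difference of 0.23 ± 0.88 that is smaller than its SE. None of the 10 genes was called, and none of the genotype by age differences was called either, the widest being -1.55 ± 0.76 for Tagln (adjusted p 0.886). With age as a covariate the PV estimates in stroma were 1.39 for Acta2, 1.36 for Tagln, 1.34 for Actg2 and 1.32 for Myh11, with adjusted p of 0.465 to 0.531.

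The wider contractile machinery was read from 6 lists. Over all genes 34.6% were called higher in stroma and 28.4% lower. Of the thin filament partners, 6 of 12 were called higher in stroma and 3 lower, led by Cald1 (caldesmon, 2.25 ± 0.12), Cnn2 (2.16 ± 0.12) and Flna (filamin, 1.73 ± 0.16), with the broadly used actin crosslinker Actn1 lower by -1.31 ± 0.17. Of the myosin chains 3 of 6 were higher and 1 lower, with Myl9 at 2.12 ± 0.16, the nonmuscle Myh10 at 1.40 ± 0.15 and Myl12b at -1.29 ± 0.08. Dense body and intermediate filament genes were higher in 9 of 10 and lower in 1, led by Synpo2 (2.71 ± 0.15), Pdlim3 (2.52 ± 0.12) and Pgm5 (2.52 ± 0.16). These 3 encode proteins of actin attachment sites. The median differences of the lists were 0.44, 0.19 and 1.07, beside 0.05 over all genes and 1.46 over the 9 kept contractile genes.

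Signalling genes followed. Of 10 kept contraction and relaxation receptors 8 were higher, and 2 were not called. Those of lowest p were Ednra, an endothelin receptor (1.53 ± 0.10), Gucy1a1, a subunit of the nitric oxide receptor (1.68 ± 0.14), and Rxfp1, the relaxin receptor (2.57 ± 0.23). Oxtr, the oxytocin receptor, was at 0.92 ± 0.21. Calcium handling genes were higher in 4 of 7 kept and lower in 1, with the L-type channel Cacna1c at 2.04 ± 0.17, Jph2 at 0.86 ± 0.14 and the calcium pump Atp2a2 at -0.52 ± 0.10. The medians of these lists were 1.51 and 0.62.

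The transcription list held Mrtfa and Mrtfb also under their older symbols, Mkl1 and Mkl2, and 6 of its 9 entries were kept. Of these 3 were higher in stroma, namely Fhl1 (2.03 ± 0.14), Tcf21 (1.99 ± 0.16) and Fhl2 (0.78 ± 0.13), and Mrtfb was lower (-0.61 ± 0.12). Srf, the serum response factor, was at -0.23 ± 0.16 and not called, and the median of the list was 0.33. Myocd did not pass the authors' filter and was at 0.49 ± 0.14 without it (edgeR adjusted p 0.00615).

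Between genotypes no gene of the 6 lists was called in either compartment, although with age as a covariate Fhl1 was called in epithelium (-0.98, edgeR adjusted p 0.0402). In stroma those with an unadjusted p under 0.05 in edgeR were Filip1l (0.87 ± 0.28), Pgm5 (0.90 ± 0.36), Prkg1 (0.65 ± 0.22) and Fhl1 (-0.76 ± 0.33), each at an adjusted p of 1. In epithelium they were Gja1, the connexin of uterine gap junctions (0.88 ± 0.24, adjusted p 0.374), Fhl1 (-0.79 ± 0.18, adjusted p 0.292), Cnn3, Actn1, Kcnma1 and Synm (-1.21 to -0.54, adjusted p 0.529 to 0.591).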

How the data were processed

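The authors counted GeoMx probes per region, flagged regions and probes with GeomxTools in R 4.1.2, and deposited expected counts for 19962 targets (4 rows not whole, lowest value 1) beside a negative-probe row, which was left out of library sizes. They also deposited signal values, the counts divided by each region's third-quartile factor (Q3), for the targets passing their detection filter. mm10 is the genome build of the submitters' processing notes. The members and lists were chosen with earlier results of these data known. Counts of first-plate regions were summed per mouse and compartment and rounded. Tests used the quasi-likelihood test of edgeR 4.0.16 (R 4.3.3) with TMM scaling over 14881 genes, two-sided, with Benjamini-Hochberg adjustment and a threshold of 0.05. SE is the absolute log2 fold change divided by the root of F, and 95% intervals use the t quantile. Log2 CPM used a prior count of 2, and log2 Q3 a pseudocount of 1. CPM used TMM factors computed within each compartment, and the compartment fits used factors computed over both. DESeq2 1.42.0 and limma 3.58.1 were alternatives. Compartments were compared with the mouse as a block: both compartments came from the same animals, and their deviations from group means correlated at 0.15 to 0.52 in 13 of 13 mice. By their labels the regions come from 14 animals, against 13 in the design text. Ages carry no unit and were read as months, and the labels do not separate glands from mucosa. All 10 members were named, and of each pathway list the 3 genes of lowest p between compartments and those under 0.05 unadjusted between genotypes, with further ones chosen after their values were seen (Oxtr, Srf, Myocd, the genes lower in stroma). Of the pathway lists, 1 list and 1 gene that this rule names are not reported here. Levels were not compared between genes. Correlations within mice, within genotypes and without PV6 were added after the data were seen. The scripts were tested on simulated data. P-values of the genotype tests within a compartment rest on the spread between mice of a genotype. Those of the paired fits rest on the spread of the compartment difference across mice. Counting error is part of the edgeR model and was not estimated on its own.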

Additional observations from a re-analysis of the deposited data

Results flagged for a closer look

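The Des level in the stroma of WT3, a log2 CPM of 9.35, stood apart from the other 6 WT mice, whose values ran from 7.15 to 7.75. It was picked out because its gap to the next mouse was large against the range of its group, in 40 groups of a gene, compartment and genotype, where chance picks out about 1 in 20. WT3 had 1 stroma region on the first plate, with 592204 counts over the kept genes. Without WT3 the genotype estimate of Des in stroma was 0.044 in place of -0.44.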

How the results depend on the processing

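Across alternatives the compartment differences kept their direction in 209 of 209 recomputed values of the 10 genes, and 2 lost their call (both plates as labelled, Actg2 0.13 and Cnn1 0.18). Lmod1 gave only 2 of these values, both 0.42, from the fit without a filter and from filterByExpr. Both kept all 19962 targets, so its main value was repeated and not rechecked. Genotype estimates, none of them called, reversed in 33 of 218 values in epithelium, 18 of 209 in stroma and 17 of 209 for genotype by compartment, and no alternative called any. The cause was not tested. With both plates as labelled, stroma gave -0.23 for Cnn1, -0.14 for Mylk, -0.0047 for Smtn, -0.090 for Tagln and -0.22 for Tpm2. Epithelium gave 0.43 for Cnn1, 0.21 for Des, 0.18 for Mylk, 0.12 for Smtn and 0.61 for Tpm2. Genotype by compartment gave -0.029 for Acta2, -0.42 for Actg2, -0.67 for Des, -0.33 for Myh11, -0.37 for Mylk, -0.12 for Smtn, -0.33 for Tagln and -0.52 for Tpm2. On limma per-mouse means, epithelium gave -0.17 for Acta2, -0.12 for Actg2 and 0.26 for Cnn1, stroma -0.10 for Cnn1, and genotype by compartment -0.031 for Des. Limma over regions gave -0.15 for Acta2, -0.20 for Actg2, 0.086 for Cnn1 and -0.15 for Myh11 in epithelium and -0.14 for Cnn1 in stroma. Upper-quartile scaling gave -0.020 for Myh11 and -0.013 for Tagln in epithelium and -0.0073 for Cnn1 in stroma. Tpm2 in epithelium was 0.0067 with no gene filter and 0.0061 with filterByExpr, Cnn1 in stroma -0.0089 with no gene filter, and Des in stroma 0.11 in mice with at least 2 regions. Without the replicate block, genotype by compartment gave 0.14 for Cnn1 and -0.12 for Des, and no other call or sign among the 10 genes changed.

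Leaving out 1 mouse at a time gave, in epithelium, -0.11 to 0.29 for Acta2, -0.30 to 0.38 for Actg2, -0.22 to 0.026 for Cnn1, -0.044 to 0.19 for Myh11, -0.070 to 0.31 for Tagln and -0.17 to 0.077 for Tpm2. In stroma it gave -0.11 to 1.07 for Actg2, -0.30 to 0.25 for Cnn1, -0.77 to 0.044 for Des and -0.0082 to 0.32 for Mylk, and for genotype by compartment -0.29 to 0.16 for Cnn1 and -0.18 to 0.18 for Des. Counts over all genes moved as well. DESeq2 called 28 genes by genotype in epithelium, 2 in stroma, 1 for genotype by compartment and 1 for genotype by age in stroma. Limma over regions called 1, 2 and 65 for the first 3 of these, and age as a covariate 10 in epithelium, with Fhl1 at -0.98 then called. Leaving out 1 mouse gave 0 to 6 calls by genotype in epithelium, 0 to 1 in stroma, and 0 to 5 and 0 to 3 for genotype by age in epithelium and stroma. Between compartments 9380 genes were called, 5151 of them higher in stroma, against 5631 on both plates, and the split was 6443 higher and 3241 lower with upper-quartile scaling, which moved the median of all genes from 0.05 to 0.18, and 5296 and 2913 with limma. Few counts limit Cnn1 and Lmod1, with a median of 7 and 5 counts per stroma region.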
